A study of Mus musculus with 15 samples.

Results

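The imprinted growth genes described here are 10 genes, H19, Igf2, Cdkn1c, Dlk1, Meg3, Peg3, Grb10, Plagl1, Igf2r and Phlda2, out of 78298 genes counted in mouse small intestinal organoids. Their rows were picked by gene symbol, and the set was chosen on the level of H19, which had been seen to be high in Halo-NLS organoids. Levels against Halo-NLS are therefore given as a description with no test, and H19 is tested nowhere. The other members were tested only between groups that express SOX9.

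Poly-A RNA was sequenced from 15 libraries in 5 groups of 3. All organoids came from small intestinal crypts of adult female mice that were C57BL/6J or bred with C57BL/6J. The study also used LGR5::DTR-EGFP mice as a source of organoids. Its methods give a wild-type background for the SOX9-Halo and SOX9-mEGFP organoids that were transduced again. They do not give the genotype of every sequenced group. The organoids were transduced with lentivirus and selected with antibiotics, and every transgene was driven by the L30 promoter. Halo-NLS organoids, the control, carried the V5-tagged HaloTag with a nuclear localization signal and a puromycin resistance gene. SOX9-Halo_budding and SOX9-mEGFP_budding organoids carried SOX9 fused to the HaloTag or to mEGFP, also with puromycin resistance. SOX9-Halo_spheroid organoids additionally carried H2B-mEGFP with zeocin resistance, and SOX9-mEGFP_spheroid organoids carried H2B-mScarletI with neomycin resistance. Spheroids are rounded organoids without buds and were taken at later passages than the budding organoids of the same line. Morphology, passage and second transgene changed together and cannot be told apart. Each group is 1 stable line, so the spread between its 3 libraries is that between cultures of a line.

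The libraries held 28062722 to 40559766 reads assigned to genes. Values are normalized counts, that is reads scaled by TMM, a factor for library size and composition, to a common depth. Reads on Sox9 averaged 524 ± 229 (SD, n = 3) in Halo-NLS and between 6164 and 16241 in the 4 SOX9 groups. The spread was wide in SOX9-Halo_budding, at 6164 ± 4576, with libraries from 1320 to 10414. The highest Halo-NLS library had 760. The summed level of 6 epithelial markers (Epcam, Cdh1, Vil1, Krt8, Krt18 and Cdx2) lay between 149843 and 313969 in all libraries. These markers differed in both directions between SOX9-Halo_budding and SOX9-Halo_spheroid. Cdx2, an intestinal transcription factor, averaged 9807 and 89.3 in that order, Vil1 34757 and 3908, and Epcam 32178 and 15282. Krt8 averaged 58663 and 65961, Krt18 14364.5 and 51655, and Cdh1 22867 and 28425. Halo-NLS replicate 3 stood apart by 40375 genes with a count, against a median of 28352.

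Imprinted genes are transcribed mainly from the copy inherited from 1 parent, under the control of regions whose DNA methylation was set differently in egg and sperm. Depending on the locus, that methylation lies on the silent or on the expressed copy. Many act on growth before birth. Paternally expressed genes such as Igf2, Dlk1, Peg3 and Plagl1 tend to promote it, and maternally expressed genes such as Cdkn1c, Igf2r, Grb10 and Phlda2 tend to limit it. H19 is a maternally expressed long noncoding RNA next to Igf2, and it is abundant in fetal endoderm and muscle and repressed after birth.

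H19 lies on chromosome 7 of GRCm39 (142129262 to 142133957, minus strand) and is the host of miR-675, whose 2 mature forms are shown because they are the small RNA products of the transcript counted here. The sequences are those of RefSeq on GRCm38.p6, with the seed (bases 2 to 8) in capitals.
mmu-miR-675-5p: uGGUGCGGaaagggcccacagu
mmu-miR-675-3p: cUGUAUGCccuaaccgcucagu
The 2 seeds differ, and neither was found in any of the other 1736 mature mouse miRNAs compared. Poly-A libraries do not measure mature miRNAs. The 84 bases of Mir675 lie within the H19 exon, where the counting assigns no read to either gene, so its count of 0 says nothing of the miRNA.

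H19 was highest in Halo-NLS, but unevenly. The normalized counts of H19 in the 3 Halo-NLS libraries were 457, 745 and 28.6, a mean of 410.3 ± 361. In SOX9-Halo_budding they were 12.6, 38.5 and 0.964, in SOX9-mEGFP_budding 16.8, 2.05 and 9.23, in SOX9-Halo_spheroid 5.85, 0 and 3.56, and in SOX9-mEGFP_spheroid 3.51, 5.94 and 0.941. Replicates 1 and 2 of Halo-NLS stood above all other libraries, whereas replicate 3, from 23 reads, lay below SOX9-Halo_budding replicate 2, from 40 reads. High H19 was thus found in 2 of the 3 Halo-NLS libraries, and the groups Halo-NLS and SOX9-Halo_budding overlapped.

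On the log2 CPM scale (reads relative to library size, with a prior count of 2), H19 in Halo-NLS exceeded the mean of the other groups by 4.95, with an SD of 2.49 between the Halo-NLS libraries. This difference was 6.38 without Halo-NLS replicate 3, 4.06 without replicate 2 and 4.42 without replicate 1. The mean was 23.7-fold that of SOX9-Halo_budding and 43.8-fold that of SOX9-mEGFP_budding. The means of the 4 SOX9 groups, from 17.3 in SOX9-Halo_budding through 9.36 in SOX9-mEGFP_budding to 3.46 and 3.14 in the mEGFP and Halo spheroids, followed each other with overlapping libraries at every step.

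Markers of other cell types were read beside H19. The 8 stromal markers summed to between 41.3 and 112 normalized counts in Halo-NLS, where 0 of the 8 were at 0, and to between 10.5 and 49.2 in the SOX9 groups. The highest stromal sum, 112, was that of Halo-NLS replicate 3, the Halo-NLS library with the least H19, and replicates 1 and 2 had sums of 41.3 and 61.2. The 4 endothelial markers likewise reached 41.0 in replicate 3 and 28.4 and 27.2 in replicates 1 and 2, and were between 0 and 25.96 elsewhere. Most of the Halo-NLS sum came from Pdgfrb, a receptor of pericytes and fibroblasts, with a mean of 46.4. The other 7 averaged between 1.24 (Dcn) and 6.55 (Pdgfra) there. Col1a1 ran the other way, from 4.88 in Halo-NLS and 4.06 in SOX9-Halo_budding to 20.97 in SOX9-Halo_spheroid, where 4 of the 8 markers were at 0. The 3 neural markers summed to between 2.27 and 43.4 over all libraries. The part of these cell types in the level of H19 was not tested. In bulk libraries fewer cells of a type and less RNA per cell cannot be told apart.

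**Figure D1:**
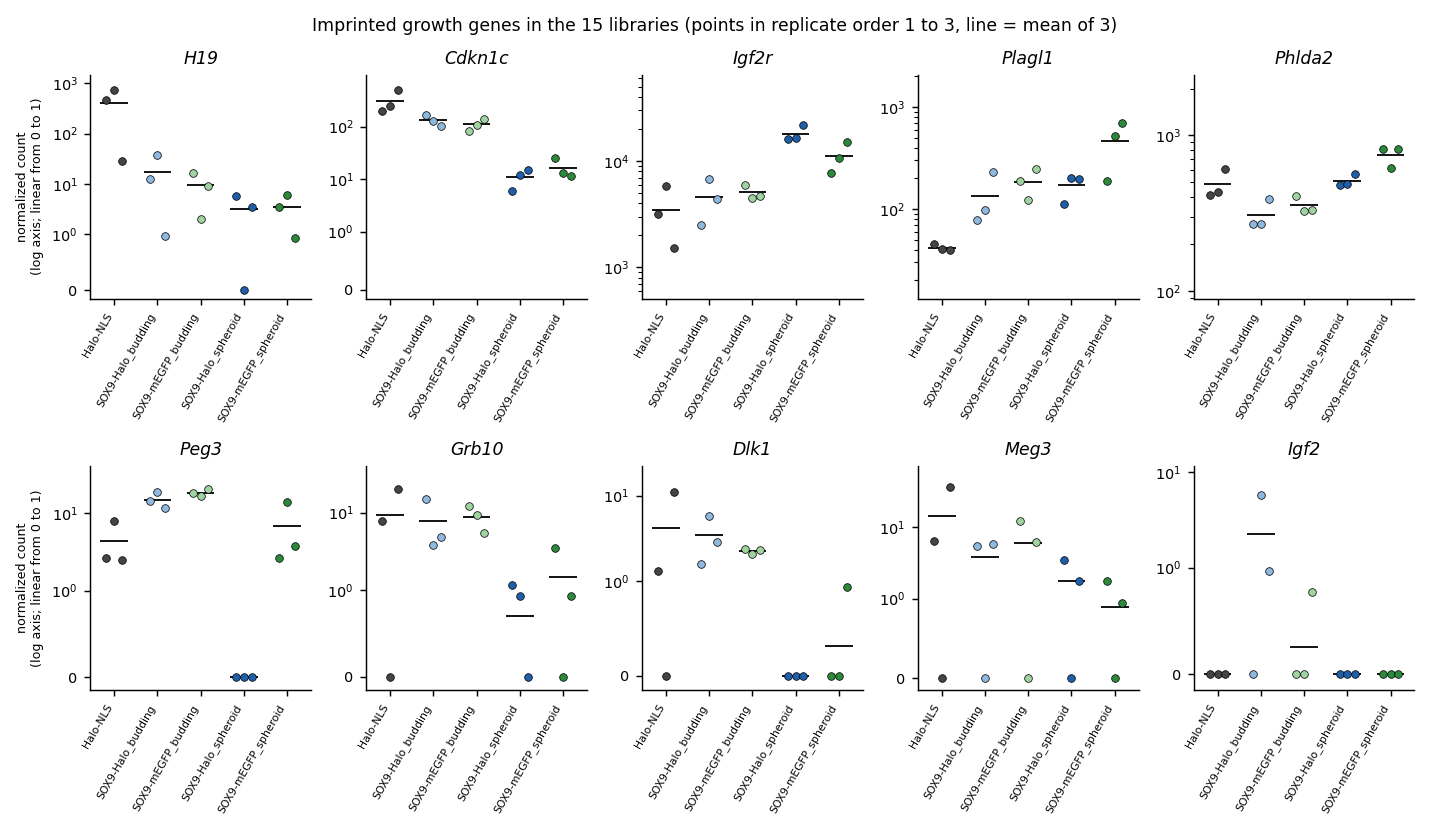
Normalized counts (vertical, log axis that is linear from 0 to 1 where a panel starts at 0) of each of the 10 imprinted growth genes in the 5 groups (horizontal). Points are the 3 libraries of a group in replicate order and the line is their mean. H19 reached 457 and 745 in 2 Halo-NLS libraries and 28.6 in replicate 3, and Cdkn1c was at most 25.4 in every spheroid library.

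The genes whose pattern was most like that of H19 were named from the Pearson correlation of log2 CPM over the 15 libraries, among the 15682 genes that averaged 10 or more normalized counts. They were Chd5, a chromatin remodelling helicase (r = 0.91), Ube2r2, a ubiquitin-conjugating enzyme (r = 0.88), Emid1, an extracellular matrix protein (r = 0.88), Afp, the fetal serum protein alpha-fetoprotein (r = 0.88), and Stard5, a sterol-binding protein (r = 0.87). These 15 points share their 5 groups and are not independent, so the correlations are descriptions. Afp had normalized counts of 323, 327 and 34.8 in Halo-NLS and 110.1, 176 and 8.68 in SOX9-Halo_budding, so that, as for H19, replicate 3 was the lowest library of both groups. Chd5 had 98.2, 117 and 22.4 in Halo-NLS. Emid1 had 167, 144 and 91.9 there and 0 reads in all 6 spheroid libraries, and its Halo-NLS libraries did not overlap with any other group.

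**Figure D2:**
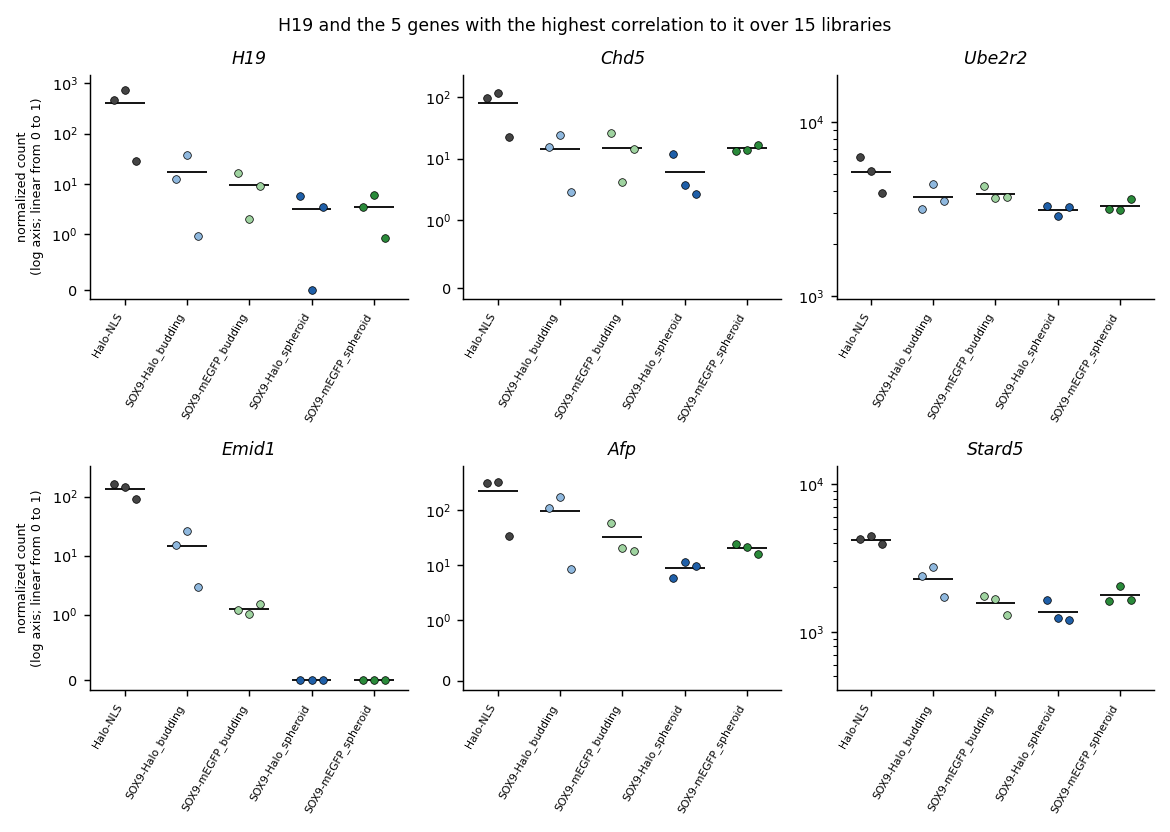
Normalized counts (vertical, log axis, linear from 0 to 1 where a panel starts at 0) of H19 and of the 5 genes most correlated with it, in the 5 groups (horizontal), 3 libraries each, with the mean as a line. Afp and Chd5 were lowest in replicate 3 among the Halo-NLS libraries, with 34.8 and 22.4, while Stard5 stayed between 3921 and 4448 in all 3.

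Igf2, the growth factor gene next to H19 (GRCm39 chromosome 7, 142204503 to 142220694), was close to absent. Igf2 had 0 reads in 12 of 15 libraries, 1 read in each of 2 and 6 reads in SOX9-Halo_budding replicate 2, and 0 in every Halo-NLS and every spheroid library. A count of 0 reads allows up to 3 by counting error alone. Only 34.5% of the exon bases of Igf2 are shared with no other annotated gene, and reads on shared bases are left out of the counts, which lowers what can be seen of Igf2. The total over all libraries was 8 reads for Igf2 and 1139 for H19.

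Dlk1 and Meg3, a transmembrane ligand of the Notch family and a noncoding RNA that lie in 1 imprinted domain of chromosome 12, were also low. Dlk1 had 29 reads in all, between 0 and 9 per library, and was at 0 in 5 of 6 spheroid libraries. Meg3 had 73 reads, of which 29 came from Halo-NLS replicate 3 and 0 from replicate 2 of every group. The 9 reads of Dlk1 and 29 of Meg3 in Halo-NLS replicate 3, the library with the most genes detected, were the highest for those genes. Its 16 reads of Grb10 were fewer than the 19 of SOX9-Halo_budding replicate 1. As normalized counts, however, Grb10 was highest in Halo-NLS replicate 3, with 19.9 against 14.9. Igf2, Dlk1 and Meg3 did not pass the filter on low counts, which left 17560 genes, and are described only. The other 7 members passed.

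Compared per length, as CPM per kb of exon not shared with another gene and averaged over the 15 libraries, the members spanned a wide range. Igf2r, the receptor that takes IGF2 to the lysosome, was highest with 27.3, followed by Phlda2, a pleckstrin-homology protein that restrains placental growth, with 12.9. Cdkn1c (p57), an inhibitor of cyclin-dependent kinases, had 2.30, H19 1.02 and Plagl1 (Zac1), a zinc finger transcription factor, 0.711. Peg3, another zinc finger protein, had 0.0194 and Grb10, an adaptor that dampens insulin and IGF receptor signalling, 0.0166. Dlk1, Meg3 and Igf2 followed with 0.0101, 0.00848 and 0.0071. This order is that of means over groups that differ. H19 owes its place to Halo-NLS, with 4.72 there and between 0.0361 and 0.199 in the 4 SOX9 groups, where Plagl1 had between 0.482 and 1.66. Cdkn1c, with 0.218 and 0.326, was also below Plagl1, with 0.607 and 1.66, in the Halo and mEGFP spheroids. Neighbours in this order overlapped in their ranges over the libraries except at 1 step, between Plagl1, at least 0.141 in every library, and Peg3, at most 0.0442.

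Against Halo-NLS, as a description, Cdkn1c was lower and Plagl1 higher in each SOX9 group. Cdkn1c had normalized counts of 199, 243 and 493 in Halo-NLS, and the highest of the 12 SOX9 libraries had 169. The fitted log2 differences from Halo-NLS for Cdkn1c were -1.21 and -1.49 in SOX9-Halo_budding and SOX9-mEGFP_budding, and -4.78 and -4.22 in the corresponding spheroids. Unlike H19, Cdkn1c was highest in Halo-NLS replicate 3. The stromal sums of the Halo-NLS libraries, 41.3, 61.2 and 112 in replicate order, ranked as Cdkn1c did. Replicate 3 also had the highest endothelial sum, 41.0, and the most genes with a count. The part of other cell types in this level of Cdkn1c was not tested.

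Plagl1 went the other way. Plagl1 had 45.2, 40.8 and 39.8 in Halo-NLS, and the lowest of the 12 SOX9 libraries, SOX9-Halo_budding replicate 1, had 77.8. The fitted log2 differences for Plagl1 were 1.69 and 2.15 in the Halo and mEGFP budding organoids and 2.03 and 3.48 in the spheroids.

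The first tested question was how the members differ between spheroids and budding organoids of the SOX9-Halo line. To be called in edgeR's quasi-likelihood test a gene needed a Benjamini-Hochberg adjusted p no higher than 0.01, a log2 fold change of 1 or more in size, and on average 10 or more normalized counts per library. Cdkn1c fell and Igf2r rose. Cdkn1c had normalized counts of 169, 131 and 103 in SOX9-Halo_budding and 5.85, 12.2 and 15.1 in SOX9-Halo_spheroid, with no overlap, and the log2 fold change was -3.57 ± 0.46 (SE), with an adjusted p of 1.7e-05. Igf2r had 2519, 6825 and 4426 in budding organoids and 16033.5, 16669.7 and 21726 in spheroids, also without overlap, a log2 fold change of 1.98 ± 0.43 and an adjusted p of 0.0016. Without SOX9-Halo_budding replicate 1, the library with the least Igf2r, the change of Igf2r was 1.69 and it was no longer called.

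Of the 6 members tested, 1 was thus called higher and 1 lower, where 10.5% of all 17560 genes were called higher and 14.7% lower. The remaining 4 were not called. Peg3 had 14.2, 18.3 and 11.6 in SOX9-Halo_budding and 0 reads in all 3 spheroid libraries, which is at least 4.90-fold lower, with 3 reads per library taken as the limit. Its adjusted p was 2.4e-04, but its mean of 8.78 normalized counts was under the limit for a call. Grb10 (14.9, 3.85 and 4.82 against 1.17, 0.935 and 0) had an adjusted p of 0.042 with a mean of 5.63. Under that limit neither Peg3 nor Grb10 could be called, here or in the comparisons below. Every count out of 6 includes them. Phlda2 differed by 0.72 ± 0.23 on the log2 scale (adjusted p = 0.020) and Plagl1 by 0.34 ± 0.47 (adjusted p = 0.605).

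In the SOX9-mEGFP line, Cdkn1c also fell and Phlda2 rose. Cdkn1c had 84.0, 109 and 139 in SOX9-mEGFP_budding and 25.4, 12.9 and 11.3 in SOX9-mEGFP_spheroid, and the log2 fold change was -2.73 ± 0.44 (adjusted p = 2.5e-04). Phlda2 had 405, 326 and 332 in budding organoids and 817, 617 and 819.8 in spheroids, with a log2 fold change of 1.08 ± 0.23 and an adjusted p of 0.0022. The groups did not overlap for either gene, so that every spheroid library stood on 1 side of every budding library. Without SOX9-mEGFP_budding replicate 2 or 3, or without SOX9-mEGFP_spheroid replicate 1 or 3, Phlda2 was not called, at changes between 0.99 and 1.00 and adjusted p-values between 0.013 and 0.018.

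Again 1 of 6 was called higher and 1 lower, beside 8.53% and 7.86% of all genes. Igf2r had 5997, 4508 and 4710.1 in budding organoids and 7692, 10594 and 15092 in spheroids, which did not overlap, but its log2 difference of 1.13 ± 0.42 had an adjusted p of 0.058. Plagl1 had 189.7, 122 and 248 against 190.3, 517 and 697, a difference of 1.32 ± 0.47 with an adjusted p of 0.047. Without the filter on low counts, Plagl1 and Igf2r were called as well. Peg3 (18.01, 16.4 and 20.01 against 2.63, 13.9 and 3.76) and Grb10 (12.0, 9.24 and 5.39 against 3.51, 0 and 0.941) were lower in every spheroid library than in any budding library, with adjusted p-values of 0.082 and 0.12.

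Markers of several other cell types differed between spheroids and budding organoids. The 4 endothelial markers summed to between 10.6 and 25.96 in SOX9-Halo_budding and between 3.51 and 5.34 in SOX9-Halo_spheroid, and to between 10.8 and 14.4 against 0 to 5.94 in the SOX9-mEGFP line, without overlap in either. The stromal sum did not overlap in the SOX9-mEGFP line, with 34.8 to 40.0 in budding organoids and 10.5 to 16.9 in spheroids, and overlapped in the SOX9-Halo line, with 22.0 to 38.6 and 16.8 to 49.2. Pdgfrb averaged 18.7 and 23.7 in the Halo and mEGFP budding groups and 1.28 and 0.915 in the spheroids. These sums were lower in the groups in which Cdkn1c was lower, except the stromal sum of the SOX9-Halo line.

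The 4 immune markers summed to between 32.9 and 123 in Halo-NLS and the budding groups and to between 111 and 369 in the spheroids. Cd68 averaged 38.1 and 46.9 in the Halo and mEGFP budding groups and 164 and 161 in the spheroids, and Csf1r averaged 10.2 and 2.02 against 4.98 and 105.9. Ptprc, which marks leukocytes, averaged 7.04 in Halo-NLS, 0.321 and 0.657 in the Halo and mEGFP budding groups, and 0 and 3.13 in the spheroids. The 3 smooth muscle markers summed to between 31.6 and 58.0 in SOX9-Halo_spheroid, mainly through Des, and to at most 19.9 elsewhere. Their part in the member results was not tested.

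**Figure D3:**
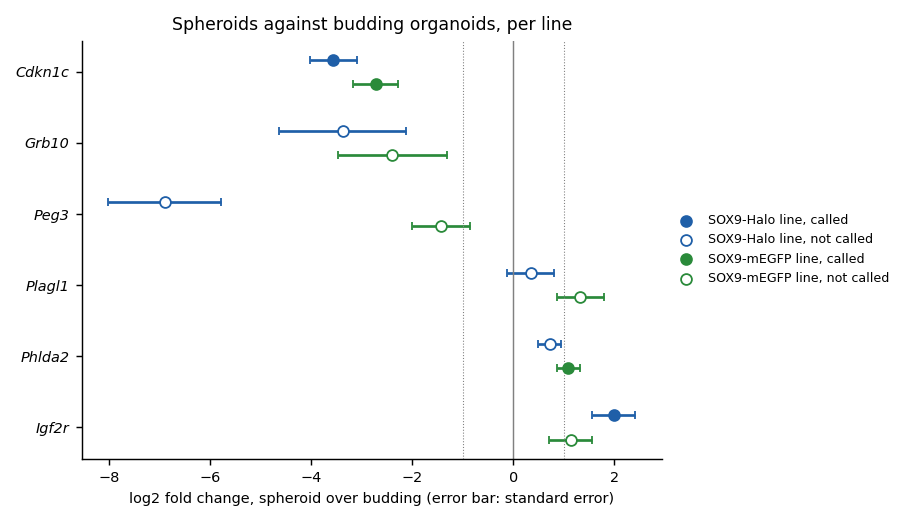
Fitted log2 fold change of spheroids over budding organoids (horizontal, bars are the standard error) for the 6 tested members (vertical) in each line. Filled points were called, dotted lines mark log2 changes of 1 and -1, and the value of Peg3 in the SOX9-Halo line depends on the prior count because its spheroids had 0 reads. Cdkn1c lies at -3.57 and -2.73.

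The lines themselves were compared among budding organoids and among spheroids, which were not matched in stage. The paper orders its groups by spheroid morphology and time in culture, and places SOX9-mEGFP before SOX9-Halo in each form. The spheroids of the lines also carried different second transgenes. Line, passage, degree of morphology change and second transgene therefore cannot be told apart between spheroids or in the interaction below. Between SOX9-Halo_budding and SOX9-mEGFP_budding, 0 of 6 members were called in edgeR, beside 0.29% of all genes higher and 0.165% lower, 0 had an unadjusted p under 0.05, and 0 were called by DESeq2. The log2 differences ran from -0.46 for Plagl1 to 0.28 for Cdkn1c. Casd1 and Ppp1r9a, 2 neighbours of the imprinted Peg10 domain, did differ here. Casd1, which acetylates sialic acid, averaged 87.3 ± 13.2 in SOX9-Halo_budding, 0.941 in SOX9-mEGFP_budding, 0.828 in Halo-NLS and 0 in both spheroid groups. Ppp1r9a, an actin-binding protein, averaged 96.5 and 83.3 in SOX9-Halo_budding and SOX9-Halo_spheroid and at most 5.81 in the other groups.

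Between SOX9-Halo_spheroid and SOX9-mEGFP_spheroid, 0 of 6 members were called by edgeR or by DESeq2, while 3 had an unadjusted p under 0.05. Of all genes, 3.59% were called higher and 9.56% lower. Peg3, with 0 reads in SOX9-Halo_spheroid and a mean of 6.75 ± 6.18 in SOX9-mEGFP_spheroid, was at least 2.25-fold lower with an adjusted p of 0.0039, below the limit of mean count. Plagl1 averaged 172 ± 50.4 in the Halo and 468 ± 257 in the mEGFP spheroids, a log2 difference of -1.44 ± 0.47 with an adjusted p of 0.037, and it was called without SOX9-mEGFP_spheroid replicate 1, at -1.83.

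Whether the change from budding to spheroid differed between lines was tested as an interaction. No member was called, 0 of 6 by edgeR and by DESeq2, with 1 at an unadjusted p under 0.05, while among all genes 1.81% had a higher and 5.56% a lower change in SOX9-Halo. That 1 was Peg3, at -5.47 ± 1.41 with an adjusted p of 0.021, a fitted value against a group at 0 and no bound. On the log2 scale the difference, SOX9-Halo minus SOX9-mEGFP, was 0.85 ± 0.59 for Igf2r (adjusted p = 0.438), -0.36 ± 0.32 for Phlda2 (adjusted p = 0.563) and -0.84 ± 0.62 for Cdkn1c (adjusted p = 0.475). The calls of Igf2r and of Phlda2 in 1 line each are therefore not shown to be differences between lines.

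The genes most like the other members were found in the same way. Cdkn1c was closest to Abhd15, Nt5c and an unnamed gene (r = 0.98 each), of which Abhd15, a lipase-like protein, averaged 128 in Halo-NLS and 3.45 in SOX9-Halo_spheroid. Igf2r was closest to Shank2, Ptpn21 and Myo1e (r = 0.98, 0.98 and 0.97), Plagl1 to Crim1, Raph1 and Sestd1 (r between 0.94 and 0.95), and Phlda2 to Mad2l2, Rab31 and Cyb5r1 (r between 0.90 and 0.92). Peg3 was closest to H2-T10, an unnamed gene and Klb (r between 0.93 and 0.94), and Grb10 to Gm53207, 4930549G23Rik and an unnamed gene (r between 0.87 and 0.88). Among members, Cdkn1c and Igf2r ran most against each other over the 15 libraries (r = -0.91).

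Cdkn1c (143012069 to 143014806) and Phlda2 (143055282 to 143056887) lie 40476 bp apart on chromosome 7 of GRCm39, both on the minus strand, in the domain that the noncoding RNA Kcnq1ot1 controls, and in SOX9-mEGFP spheroids Cdkn1c fell while Phlda2 rose. Of 20 other tested genes within 500 kb of Cdkn1c, 8 were called higher and 3 lower in SOX9-Halo spheroids, and 5 higher and 1 lower in SOX9-mEGFP spheroids. The shares over all genes were 10.5% and 14.7% in the SOX9-Halo line and 8.53% and 7.86% in the SOX9-mEGFP line. Slc22a18, an organic cation transporter gene between Cdkn1c and Phlda2, averaged 2000.0 ± 238 in SOX9-Halo_budding and 881 ± 7.41 in SOX9-Halo_spheroid, and 2190 and 2261 in the mEGFP groups, and its change differed between lines (-1.23 ± 0.28, adjusted p = 0.0077). Kcnq1, a potassium channel gene 31281 bp from Cdkn1c, rose in the SOX9-Halo line by 1.24 ± 0.25. Kcnq1ot1 averaged between 9.52 and 22.3 in the 5 groups and was not called.

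Near H19, 13 other genes within 500 kb were tested, of which 5 rose and 1 fell in the SOX9-Halo line and 4 rose and 1 fell in the SOX9-mEGFP line, beside the same shares of all genes (10.5% and 14.7%, 8.53% and 7.86%). This set overlaps that of Cdkn1c, so the counts are not separate. Tspan32 and Cd81, which rose in the SOX9-Halo line, and Trpm5, which fell, belong to both sets. The nearest gene to H19 is given next. Mrpl23, which encodes a mitochondrial ribosomal protein, lies 34776 bp from H19. It averaged 2479 in Halo-NLS, 1598 and 1525 in the Halo and mEGFP budding groups, and 1002 and 987 in the spheroids. It was not called in either line. Around Igf2r (chromosome 17, 12901293 to 12988614), 19 genes were tested, of which 2 rose and 3 fell in each line, against those shares. Airn, the antisense noncoding RNA that crosses Igf2r, averaged 61.4 in Halo-NLS and between 104 and 191 in the SOX9 groups, with a log2 difference of 0.31 (adjusted p = 0.47) in the SOX9-Halo line and 0.59 (adjusted p = 0.19) in the SOX9-mEGFP line. Slc22a3, another gene of this cluster, fell in both lines, to at most 0.990 in any spheroid library.

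**Figure D4:**
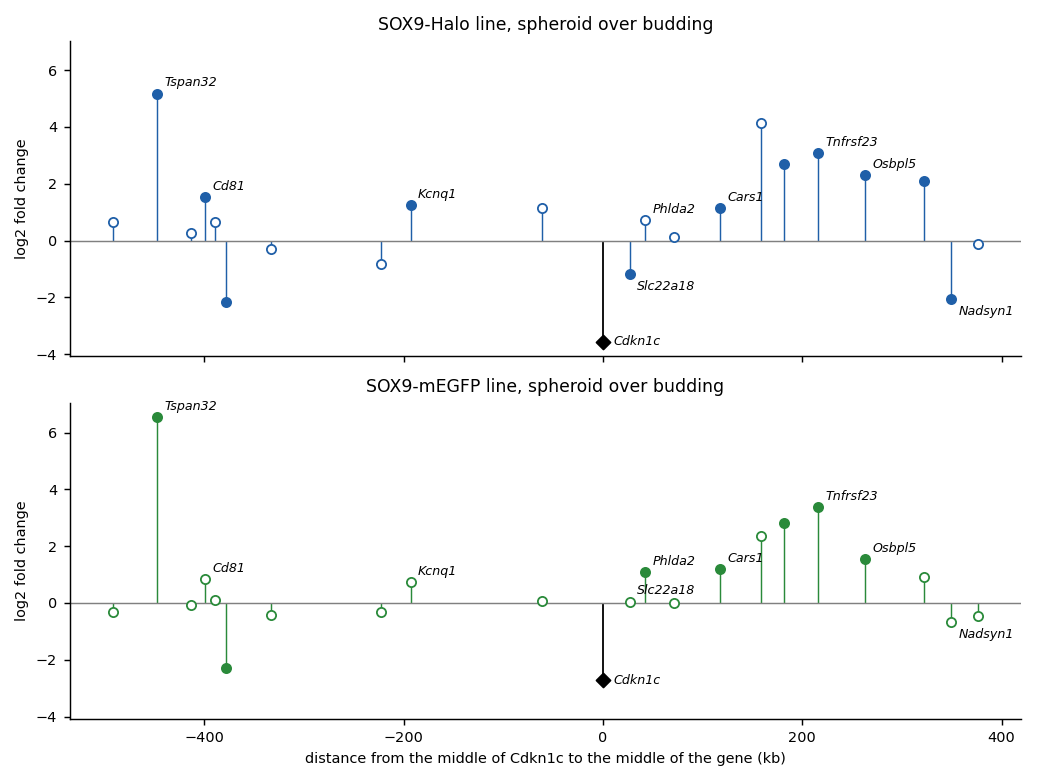
Fitted log2 fold change of spheroids over budding organoids (vertical) for Cdkn1c (black) and the tested genes within 500 kb, against the distance between gene middles in kb (horizontal), one panel per line. Filled points were called. Cdkn1c lies at -3.57 and -2.73 and Phlda2, next to it, at 0.72 and 1.08.

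Other imprinted genes were taken from a list of 62, of which 33 were tested. In the SOX9-Halo line 6 rose and 6 fell, beside 10.5% and 14.7% of all genes, and their median log2 change was 0.11 against -0.08 over all genes. In the SOX9-mEGFP line 5 rose and 1 fell, beside 8.53% and 7.86%, with a median of 0.10 against -0.04. Between spheroids 1 was higher and 6 lower in SOX9-Halo, beside 3.59% and 9.56%, and in the interaction 0 were higher and 4 lower by both edgeR and DESeq2, with 8 at an unadjusted p under 0.05, beside 1.81% and 5.56%. The chloride channel gene Ano1 rose in both lines, from means of 95.0 and 69.5 to 3262 and 3277. Cd81, a tetraspanin, rose in the SOX9-Halo line from 9971 to 28659, and Ddc, which encodes aromatic amino acid decarboxylase, fell from 3203 to 246. Tspan32, Cd81, Kcnq1, Osbpl5 and Slc22a18 of this list were also counted among the genes near Cdkn1c, and Slc22a3 among those near Igf2r.

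The 4 genes lower in the interaction were Ddc, Slc22a18, Snrpn and Tfpi2. Snrpn, a spliceosome protein gene transcribed from the paternal copy, averaged 258 ± 60.4 in SOX9-Halo_budding, 0.297 in SOX9-Halo_spheroid, 328 ± 101.2 in SOX9-mEGFP_budding and 185 ± 32.3 in SOX9-mEGFP_spheroid, and the difference between lines had an adjusted p of 2.8e-06. Tfpi2, a protease inhibitor gene, averaged 208, 0, 259.9 and 156 in the same groups (adjusted p = 3.3e-05). Gatm, which acts in creatine synthesis, and Osbpl5, a lipid transfer protein gene, rose in both lines.

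The list of IGF binding proteins, receptors and RNA-binding partners had 18 genes, of which 13 were tested. In the SOX9-Halo line 5 rose and 3 fell, beside 10.5% and 14.7% of all genes, and the median log2 change was 0.73 against -0.08 over all genes. In the SOX9-mEGFP line 3 rose and 2 fell, beside 8.53% and 7.86%, with a median of -0.26 against -0.04. Between the budding lines 0 were called by edgeR or DESeq2 and 3 had an unadjusted p under 0.05. Of all genes, 0.29% were called higher in that edgeR comparison and 0.165% lower. Igfbp5, a secreted IGF-binding protein, averaged 5.54 and 7.14 in the Halo and mEGFP budding groups and 3618 ± 461 and 759 ± 258 in the spheroids. Igfbp2 moved the other way, from 202 and 495 to 0 and 5.79, as did Igf2bp3, an RNA-binding protein named for its binding of Igf2 mRNA, from 242 and 564 to 1.28 and 5.58. The other Igf2bp genes did not share this pattern. Igf2bp1 averaged 3.88 and 4.39 in the Halo and mEGFP budding groups and 223 and 2.46 in the spheroids. Igf2bp2 averaged 3427 and 3782 in the budding groups and 2351 and 2811 in the spheroids. Igfbp4 averaged 3010 in SOX9-Halo_spheroid and 2165 in Halo-NLS but at most 104 in the other 3 groups, and its change differed between lines (log2 4.38 ± 0.55, adjusted p = 7.0e-05). Igfbp3 rose in both lines, to 78.2 and 616, and Pik3r1, a regulatory subunit of PI3 kinase, fell in the SOX9-Halo line from 2220 to 302.

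The third list held 24 genes of DNA methylation and imprint maintenance, of which 21 were tested. In the SOX9-Halo line 0 were called by edgeR or DESeq2, with 4 at an unadjusted p under 0.05. Of all genes, 10.5% were called higher there in edgeR and 14.7% lower. The single gene called in the SOX9-mEGFP line, beside 8.53% of all genes higher and 7.86% lower, was Zfp57. It encodes a zinc finger protein that holds methylation at imprinted loci. Zfp57 averaged 146 ± 14.8 in SOX9-mEGFP_spheroid and 7.36, 17.6, 5.73 and 5.85 in SOX9-mEGFP_budding, SOX9-Halo_budding, SOX9-Halo_spheroid and Halo-NLS, and its change differed between lines by -5.89 ± 1.07 on the log2 scale (adjusted p = 0.0015). Dnmt1, the maintenance methyltransferase, averaged between 3060 and 5638 in the 5 groups and was not called.

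**Figure D5:**
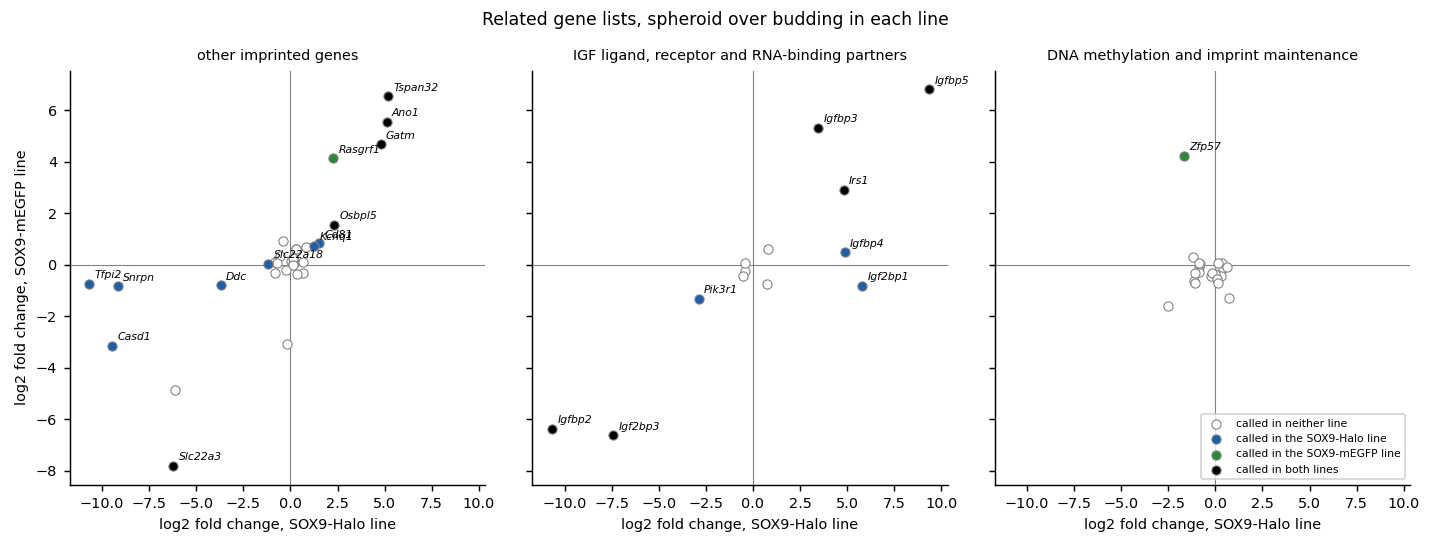
Fitted log2 fold change of spheroids over budding organoids in the SOX9-Halo line (horizontal) and the SOX9-mEGFP line (vertical) for the tested genes of the 3 lists, one panel per list. Colours mark the line in which a gene was called, and values of genes with 0 reads in a group depend on the prior count. Igfbp5 and Igfbp2 lie at opposite ends, and Zfp57 was called in the SOX9-mEGFP line alone.

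Promoters were shown for the members that were higher in spheroids or in all SOX9 groups and for which RefSeq (GRCm38.p6) gave a window. Windows of 250 bases before to 50 after the start existed for 8 of the 10 members, 13 in all, and H19 and Cdkn1c had none. The 250 upstream bases are printed 5′ to 3′ with CpG dinucleotides, the sites of methylation, in capitals. Plagl1 is on the plus strand (chr10:13090582-13090831), and Igf2r (chr17:12769707-12769956) and Phlda2 (chr7:143502525-143502774) on the minus strand.
Plagl1: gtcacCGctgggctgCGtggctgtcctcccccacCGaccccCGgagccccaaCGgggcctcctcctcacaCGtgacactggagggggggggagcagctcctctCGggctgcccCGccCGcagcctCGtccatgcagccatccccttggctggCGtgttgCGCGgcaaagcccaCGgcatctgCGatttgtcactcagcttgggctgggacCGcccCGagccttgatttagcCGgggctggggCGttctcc
Igf2r: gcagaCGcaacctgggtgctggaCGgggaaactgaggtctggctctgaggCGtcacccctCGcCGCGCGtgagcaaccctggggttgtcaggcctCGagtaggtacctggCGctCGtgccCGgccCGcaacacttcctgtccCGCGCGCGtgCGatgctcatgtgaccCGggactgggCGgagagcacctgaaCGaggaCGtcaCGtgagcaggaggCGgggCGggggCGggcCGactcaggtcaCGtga
Phlda2: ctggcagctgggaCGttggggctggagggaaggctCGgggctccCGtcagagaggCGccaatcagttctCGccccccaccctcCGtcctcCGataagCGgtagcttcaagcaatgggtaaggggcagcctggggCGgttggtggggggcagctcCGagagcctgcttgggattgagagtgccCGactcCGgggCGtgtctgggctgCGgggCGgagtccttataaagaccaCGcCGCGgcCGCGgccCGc
These stretches hold 19, 27 and 21 CpG dinucleotides. The full windows of Plagl1, Igf2r and Phlda2 hold 26, 34 and 26, against a median of 7 over all 32851 windows. The windows of the other members hold 45 and 9 (Grb10), 2, 14, 24 and 7 (Igf2), 13 and 1 (Meg3), 13 (Peg3) and 9 (Dlk1). A high number was thus not particular to the members shown.

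Both strands of each window were searched for AACAAT, the core bound by SOX factors, and TGCCGC, the core bound by ZFP57. AACAAT or its complement was found in 1 of the 13 member windows, at a start of Igf2, and in 10.7% of all windows. TGCCGC or its complement was found in 4 of 13, at starts of Grb10, Igf2, Meg3 and Plagl1, and in 11.6% of all windows. In Plagl1 the match is GCGGCA and begins 90 bases before the start. A match describes letters in the window, not binding.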

How the data were processed

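The deposited files held whole-number read counts per gene for 15 libraries. Per the study's methods, the authors trimmed reads with cutadapt, kept unique STAR alignments to GRCm39 and made the counts with HTSeq (union, without strand), so reads on bases shared by genes were not counted and antisense reads are not separated. Deposited tables of the authors' own comparisons, which hold fold changes and p-values, were not used. Counts were scaled by TMM and fitted over all 15 libraries in edgeR 4.0.16 (R 4.3.3) by the quasi-likelihood test, after filterByExpr left 17560 genes, with Benjamini-Hochberg adjustment over them. Intervals and limits at 0 cover counting error only. The members and lists were chosen with earlier results of these data known. Named were all members, the 5 genes most correlated with H19, the 3 most correlated with each other tested member, and up to 4 called genes of each list per comparison by mean count. Dnmt1, Airn, Igf2bp1, Igf2bp2 and genes named for nearness were chosen after their values were seen. Same-numbered replicates of SOX9-Halo_budding and SOX9-Halo_spheroid deviated together (r = 0.471, 0.278 and 0.417 over 8965 genes). Those of SOX9-mEGFP_budding and SOX9-mEGFP_spheroid had r = 0.0402, 0.0715 and 0.25. Halo-NLS and SOX9-Halo_budding, which are different lines, had r = 0.46, 0.848 and -0.197. Differently numbered replicates were not compared, so these values do not show that the numbers pair cultures. The fits were also run on simulated counts, with a spread between libraries set below that of these data. That run therefore does not measure how well changes are found here. Alternatives were DESeq2 1.42.0, other scalings, filters and thresholds, the replicate block and leaving out each library.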

Additional observations from a re-analysis of the deposited data

How the results depend on the processing

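No called member changed direction under the alternatives tried. Members that were not called did so when a library was left out. Grb10 between the budding lines moved from -0.10 to as much as 0.21 and between spheroids from -1.08 to 0.36, and Igf2r between the budding lines moved from -0.14 to 0.15. With library sizes alone as scaling, the median over all genes against Halo-NLS moved to between 0.27 and 0.31 (log2), from between -0.01 and 0.03. In the SOX9-Halo line 2 members were called, and between 1 and 2 when a library was left out, the lower count coming without SOX9-Halo_budding replicate 1, where Igf2r was 1.69. In the SOX9-mEGFP line 2 were called. Without the low-count filter 4 were, with Plagl1 and Igf2r added, and 3 were at an adjusted p of at most 0.05, with Plagl1 added. Over all 17560 genes, 1498 were called higher and 1381 lower in the main fit of this line. These were 1728 and 1604 of 52932 genes without the filter, and 1833 and 1744 of 17560 at 0.05. Between 1 and 2 members were called when a library was left out, where Phlda2 was lost. Between spheroids 0 were called, 1 without the low-count filter and 1 at an adjusted p of at most 0.05. Between 0 and 1 were called when a library was left out, the 1 being Plagl1 each time. Over all genes, calls higher and lower between spheroids were 630 and 1678 in the main fit. They were 798 and 2164 without the filter, and 878 and 2180 at 0.05. The cause of these differences was not tested. With the replicate block the counts of called members were 2, 2, 0, 0 and 0 in the 5 comparisons. The block fits a shared effect per replicate number over all groups, and the numbers were not shown to pair cultures in either line. With it the called genes were again Cdkn1c (-3.61, edgeR adjusted p = 3.0e-05) and Igf2r (2.06, 0.00125) in the SOX9-Halo line. In the SOX9-mEGFP line they were again Cdkn1c (-2.69, edgeR adjusted p = 4.0e-04) and Phlda2 (1.07, 0.00121). Within the SOX9-Halo line alone, a fit added after seeing the data, 2 were called with the block, Cdkn1c and Igf2r. The difference of H19 in Halo-NLS ranged from 4.06 to 6.38 when a Halo-NLS library was left out, and was 4.71 with library sizes alone. Peg3 and Grb10 average under 10 normalized counts and could not be called whatever their p.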
